A study of Mus musculus with 10 samples.

Results

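Expression of 8 genes that mark the maturation and the subsets of dendritic cells was followed in cultured mouse macrophages exposed to plasminogen. The genes are Fscn1, Ccr7 and Cacnb3, which rise when dendritic cells mature, Zbtb46 and Flt3, which mark the conventional dendritic cell lineage, and Batf3, Itgae and Cd209a, which mark its subsets. They were chosen by symbol, and each matched 1 of the 16936 protein-coding genes in the deposited table. The cells were bone marrow-derived macrophages. Marrow was cultured with 50 ng/mL of the growth factor GM-CSF over 7 days, and total RNA was sequenced from 10 samples. Of the samples, 5 are labelled untreated, and no exposure time is given for them. The other 5 (PLG) were exposed for 24 h to PLG, which the series' design names as human plasminogen, the circulating precursor of the protease plasmin. Both groups shared the GM-CSF culture. The sources used here give neither mouse strain, PLG dose nor a control preparation, and plasminogen itself cannot be told apart from anything else in the added material. No label assigns a replicate to a mouse or a separate culture, and p-values therefore measure the spread between these samples, which may be technical.

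Dendritic cells sample their surroundings in an immature state and, once activated, mature: they stop taking up material, show antigen and costimulatory molecules, and move to lymph nodes along the chemokines that CCR7 recognises. Conventional dendritic cells depend on the receptor FLT3 and divide into type 1 cells (cDC1), which need the transcription factor BATF3, and type 2 cells (cDC2). Marrow cultured in GM-CSF is known to give a mixture of macrophage-like and dendritic cell-like cells. RNA of a whole culture gives only the sum, in which fewer cells of a type and less RNA per cell cannot be told apart.

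Values are FPKM, reads scaled to gene length and library size, as the authors deposited them. Each value steps in units of a single read, which puts 28426106 to 64214566 reads per sample on the table's genes. Correlations between samples were 0.976 to 0.995 inside either group and 0.847 to 0.868 across them. Group values are means ± SD over 5 samples. Changes are differences in log2(FPKM + 1), PLG minus untreated, which understate the change of genes with low values. Macrophage markers were present in both groups, Lyz2 (lysozyme) at 5792 ± 561 FPKM in untreated and 2000.1 ± 77.9 FPKM in PLG samples and Adgre1 (F4/80) at 80.0 ± 4.80 FPKM and 177 ± 9.79 FPKM.

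The 3 maturation genes had the largest rises among the members on the log2(FPKM + 1) scale, the 2 lineage genes and Batf3 rose as well, and Cd209a fell to a level near 0. Genes entered the test with 1 FPKM or more in 5 or more samples, and 7 members did. Of these 7, 6 were higher and 1 was lower with PLG in limma's test with Benjamini-Hochberg adjustment over all 9997 tested genes at a threshold of 0.05. Flt3 passed the filter only through the PLG samples and Cd209a only through the untreated samples, so each entered the test through the group where it was high, and the count is no support for a direction. Low genes of the lists below can enter in the same way, and the list counts are descriptions too. Some genes stand in several lists, so the counts and medians of the lists are not independent of each other. In the same test 60.4% of all tested genes passed, 29.1% as higher and 31.3% as lower, so a call by itself says little about a member here. The members were chosen with earlier results of these data known, and the sizes of their changes are given as a description. A rise at least as large as that of Ccr7 was called for 0.47% of tested genes and a fall at least as large as that of Cd209a for 0.91%. The median change over all tested genes was -0.02. Itgae lay under the filter and was taken from a fit without it, in which 20.1% of genes passed as lower. In each of the 8 members the groups did not overlap, PLG being above in 6 and below in 2. The groups were apart in 47.2% of all tested genes, with PLG above in 22.7% and below in 24.5%. For each member the two-sided exact permutation test gives 0.00794, the smallest p that 5 against 5 samples allows.

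**Figure D1:**
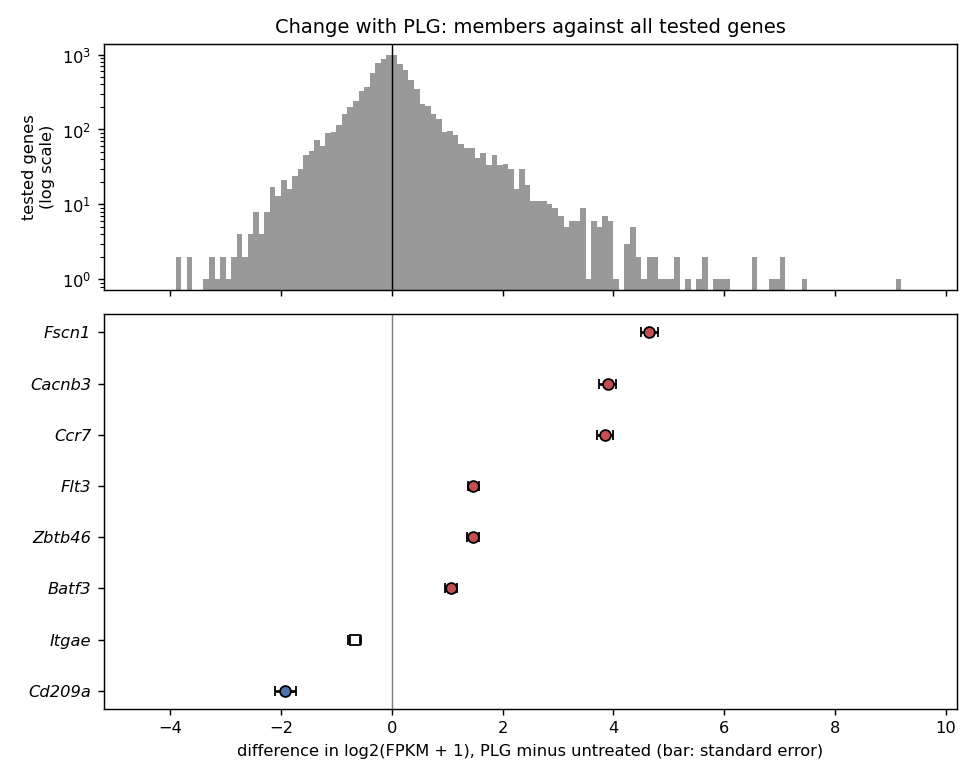
Change of the 8 members with PLG (lower panel, difference in log2(FPKM + 1), bars are standard errors) below the distribution of the same difference over all 9997 tested genes (upper panel, number of genes on a log scale). The 3 maturation genes lie at 3.84 to 4.65, far in the right tail, and Cd209a lies at -1.92 (the open square is Itgae, from the fit without the filter).

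Fscn1 encodes fascin, which bundles actin filaments in the projections of mature dendritic cells (ENSMUSG00000029581.14, chromosome 5, 142960343 to 142973185, forward strand). Its level in untreated samples 1 to 5 was 30.5, 24.95, 44.6, 21.7 and 20.6 FPKM, and in PLG samples 1 to 5 it was 762, 704, 675, 677 and 727 FPKM. Every PLG sample was far above every untreated one, and the lowest PLG value was 15.1 times the highest untreated value. The mean went from 28.5 ± 9.82 to 709 ± 36.6 FPKM, a ratio of 24.9 (log2 change 4.65, SE 0.160, limma adjusted p = 2.05e-11). Among all 16936 genes ranked by mean FPKM, Fscn1 moved from place 1331 in untreated to place 31 in PLG samples.

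Ccr7 encodes the chemokine receptor that guides maturing dendritic cells to lymph nodes (ENSMUSG00000037944.8, chromosome 11, 99144196 to 99155077, reverse strand). It stood at 44.9, 33.7, 53.4, 31.7 and 26.8 FPKM in untreated samples 1 to 5 and at 574, 507, 524, 543 and 562 FPKM in PLG samples 1 to 5. The groups were apart, with the lowest PLG value 9.5 times the highest untreated value. The mean went from 38.1 ± 10.8 to 542 ± 27.1 FPKM, a ratio of 14.2 (log2 change 3.84, SE 0.144, limma adjusted p = 4.49e-11), and the gene moved from place 924 to place 44 by level.

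Cacnb3 encodes a beta subunit of voltage-gated calcium channels and is known as a transcript of activated dendritic cells (ENSMUSG00000003352.14, chromosome 15, 98630840 to 98644529, forward strand). Its level was 11.3, 7.99, 14.8, 6.75 and 7.99 FPKM in untreated samples 1 to 5 and 162, 151, 148, 151 and 161 FPKM in PLG samples 1 to 5. Here too no PLG sample came near an untreated one. The mean went from 9.76 ± 3.27 to 154 ± 6.44 FPKM, a ratio of 15.8 (log2 change 3.90, SE 0.152, limma adjusted p = 6.54e-11), and the rank by level from 3873 to 193. The 3 genes thus held place 24, 42 and 47 among the tested genes ordered by rise, Fscn1 first, then Cacnb3, then Ccr7.

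**Figure D2:**
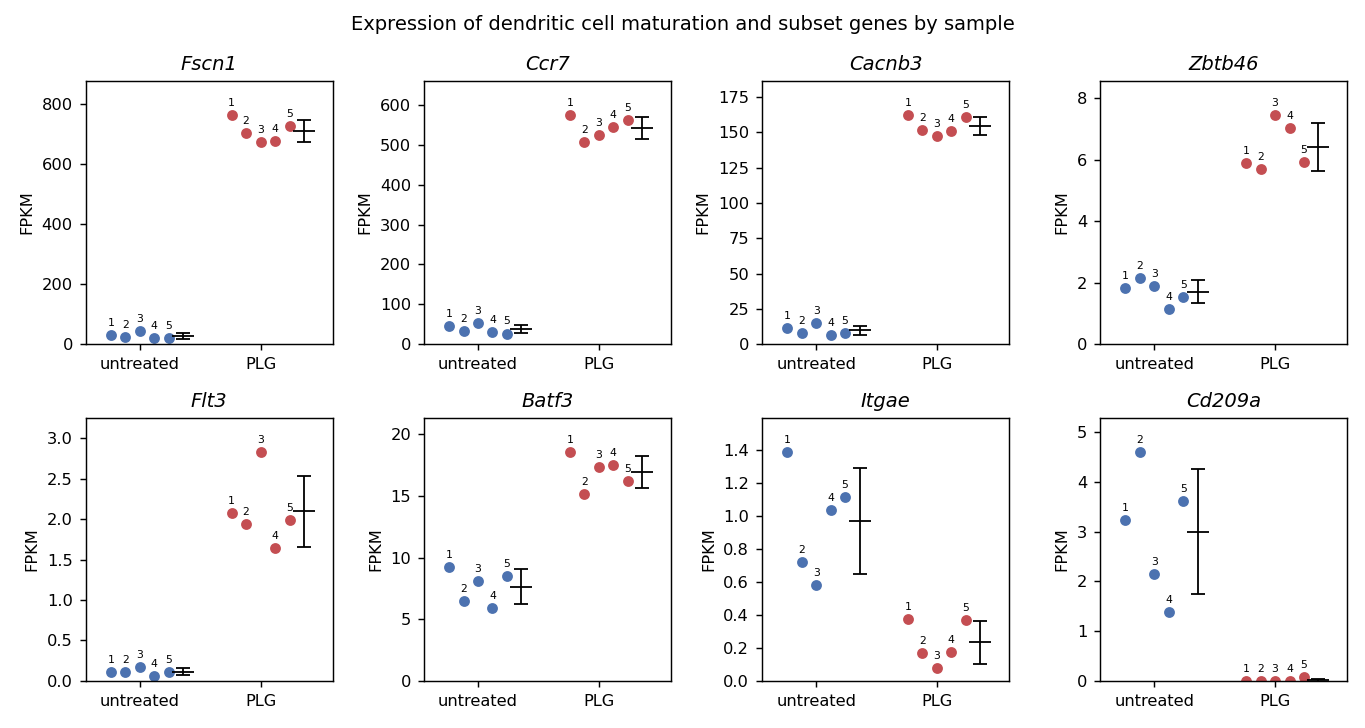
FPKM of each member in the 5 untreated (blue) and 5 PLG (red) samples, with the replicate number above each point and the mean ± SD beside the points; each panel has its own linear axis from 0. Fscn1, Ccr7, Cacnb3, Zbtb46, Flt3 and Batf3 are higher in every PLG sample, and Itgae and Cd209a are lower in every PLG sample.

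RefSeq promoter windows of 300 bases on GRCm38.p6 were matched for 6 members in 7 windows, and Ccr7 and Itgae were not matched. They were searched on both strands for a kappaB-like motif, an AP-1 motif (TGANTCA), an interferon response element-like motif and a PU.1-like motif (GAGGAAGT). After the windows had been read, a cAMP response element (TGACGTCA) and a TATA box (TATAAA) were added. The windows of the steepest riser, of a second maturation gene, of the lineage gene Zbtb46 and of the member that fell to near 0 are shown 5′ to 3′ along the gene, with matches in capitals.
Fscn1 (chr5:142960105-142960404, forward strand): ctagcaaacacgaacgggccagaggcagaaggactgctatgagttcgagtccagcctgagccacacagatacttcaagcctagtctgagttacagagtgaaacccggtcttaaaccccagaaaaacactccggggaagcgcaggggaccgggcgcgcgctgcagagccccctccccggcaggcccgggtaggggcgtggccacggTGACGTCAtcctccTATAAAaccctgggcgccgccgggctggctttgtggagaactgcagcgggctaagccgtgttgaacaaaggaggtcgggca
Cacnb3 (chr15:98632078-98632377, forward strand, one of its 2 windows): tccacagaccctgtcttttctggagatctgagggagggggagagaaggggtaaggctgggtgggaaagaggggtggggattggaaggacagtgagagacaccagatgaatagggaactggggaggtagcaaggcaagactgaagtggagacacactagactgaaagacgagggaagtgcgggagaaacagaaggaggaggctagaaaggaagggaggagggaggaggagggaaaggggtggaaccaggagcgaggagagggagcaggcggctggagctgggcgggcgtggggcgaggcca
Zbtb46 (chr2:181424339-181424638, reverse strand): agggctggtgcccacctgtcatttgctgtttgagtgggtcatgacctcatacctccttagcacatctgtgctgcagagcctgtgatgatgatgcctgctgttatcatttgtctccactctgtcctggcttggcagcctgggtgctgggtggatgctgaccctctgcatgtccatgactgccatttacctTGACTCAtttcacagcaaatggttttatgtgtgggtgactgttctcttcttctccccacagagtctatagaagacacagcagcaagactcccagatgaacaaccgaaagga
Cd209a (chr8:3748935-3749234, reverse strand): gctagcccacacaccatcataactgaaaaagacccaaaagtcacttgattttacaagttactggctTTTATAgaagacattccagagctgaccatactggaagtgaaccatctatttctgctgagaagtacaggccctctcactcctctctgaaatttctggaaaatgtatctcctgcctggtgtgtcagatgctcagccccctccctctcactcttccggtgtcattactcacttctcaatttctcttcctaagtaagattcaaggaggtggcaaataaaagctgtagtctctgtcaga
The Fscn1 window held TGACGTCA, beginning 45 bases before the RefSeq start, and TATAAA, beginning 31 bases before it. Of 32851 windows of this length 1.79% held the former and 13.6% the latter. Both were added to the search after the windows had been read, so these shares do not measure how unusual the matches are. The Zbtb46 window held TGACTCA, a match to the AP-1 motif that reads on both strands, beginning 61 bases before the start, and 7.81% of all windows held that motif. This start lies 35038 bases inside the outer end of Zbtb46 in the deposited table, so the window belongs to an inner start. The start of the printed Cacnb3 window lies 1488 bases inside the gene's outer end, that of its other window 3927 bases and that of the Batf3 window 567 bases. The Cd209a window held a TATA box only on the opposite strand. The kappaB-like (5.56% of all windows), interferon response element-like (3.44%) and PU.1-like (3.20%) letters were not in any of the 7 windows. A match describes letters and not a bound site.

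Most other genes of the maturation programme rose. Of the 49 genes listed beside the members, 45 were tested, and of these 41 were higher, 3 were lower and 1 did not pass, with a median change of 2.14. This list was written with earlier results of these data known and is no independent support. RNA of the whole culture does not show whether these genes rose in dendritic cell-like or in macrophage-like cells. The chemokine genes Ccl22, which attracts regulatory T cells, and Ccl5 increased, the former 112 ± 18.3 to 1577 ± 53.9 FPKM and the latter 12.3 ± 4.24 to 2249 ± 133 FPKM. Cd40, a costimulatory receptor, went from 1.08 ± 0.310 to 27.7 ± 3.62 FPKM. Pdcd1lg2, a ligand of the inhibitory receptor PD-1, did not pass, at 22.2 ± 3.64 FPKM in untreated and 26.3 ± 2.90 FPKM in PLG samples. The 3 lower genes were Fabp5 (82.5 to 42.4 FPKM on average), Il7r (124 to 96.3) and Anxa3 (49.9 to 39.1). Lamp3, listed too but under the filter, stayed near 0, at 0.0322 ± 0.0469 FPKM in untreated and 0.0516 ± 0.0758 FPKM in PLG samples. Lamp3 and the lower genes were named after their values had been seen.

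Around Fscn1, genes of actin bundling and of filopodia moved both ways. Of 26 tested, 15 were higher, 7 were lower and 4 did not pass, with a median of 0.39. Marcksl1, an actin-binding membrane protein gene, rose from 15.7 ± 3.22 to 238 ± 23.8 FPKM. Palld (palladin) rose from 2.23 ± 0.0546 to 19.4 ± 0.984 FPKM, Tes (testin) from 9.78 ± 0.834 to 38.4 ± 1.26 FPKM and Actn1 (an alpha-actinin) from 44.2 ± 2.02 to 96.4 ± 5.21 FPKM. The GTPase gene Cdc42 did not pass, at 179.8 ± 6.13 FPKM in untreated and 177 ± 6.78 FPKM in PLG samples. The paralogues of fascin stayed under the filter in both groups, with Fscn2 at 0.156 FPKM and 0.223 FPKM on average and Fscn3 at 0.0792 FPKM and 0.112 FPKM.

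Around Ccr7, 7 of 18 tested migration genes were higher, 7 were lower and 4 did not pass, with a median of 0.04. The genes of its ligands, Ccl19 and the Ccl21 group, were not analysed here. Ccrl2, an atypical chemoattractant receptor gene, rose from 5.6 ± 1.33 to 46.5 ± 4.14 FPKM. Ccr2, the receptor that brings monocytes into tissue, fell from 9.88 ± 0.930 to 0.175 ± 0.113 FPKM, opposite to Ccr7. Trem2, a lipid-sensing receptor gene, fell from 46.6 ± 3.11 to 13.3 ± 0.943 FPKM, and Dock2, which activates the GTPase Rac in moving leukocytes, from 41.0 ± 1.28 to 20.6 ± 0.919 FPKM. Ccr1 did not pass, at 88.1 ± 7.74 FPKM in untreated and 80.8 ± 4.52 FPKM in PLG samples.

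Around Cacnb3, most genes of the calcium channel lay at low levels, and 7 of 27 in the table were tested. Of the 7, 6 were higher and 1 was lower, with a median of 0.65. Over all tested genes 29.1% were higher and 31.3% lower. Gem and Rrad averaged under 1 FPKM in untreated samples, so they could pass the filter through the PLG samples alone. The count is therefore no support for a direction. Gem and Rrad, small GTPases that bind channel beta subunits, rose, the former from 0.545 ± 0.225 to 14.8 ± 1.13 FPKM, the latter from 0.71 ± 0.465 to 3.35 ± 0.722 FPKM. Itpr1, a calcium release channel of internal stores, fell from 3.13 ± 0.217 to 1.69 ± 0.0811 FPKM. The paralogues of Cacnb3 stayed far below its PLG level, with Cacnb1 at 3.39 ± 0.799 FPKM, Cacnb4 at 0.297 ± 0.0543 FPKM and Cacnb2 at 0.0376 ± 0.0210 FPKM in PLG samples. The pore-forming subunits that Cacnb3 is known to serve were likewise low, with Cacna1d at 1.20 ± 0.130 FPKM and Cacna1c at 0.0212 ± 0.00550 FPKM in PLG samples. These paralogues and pore subunits were named for their relation to Cacnb3 after their values had been seen.

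**Figure D3:**
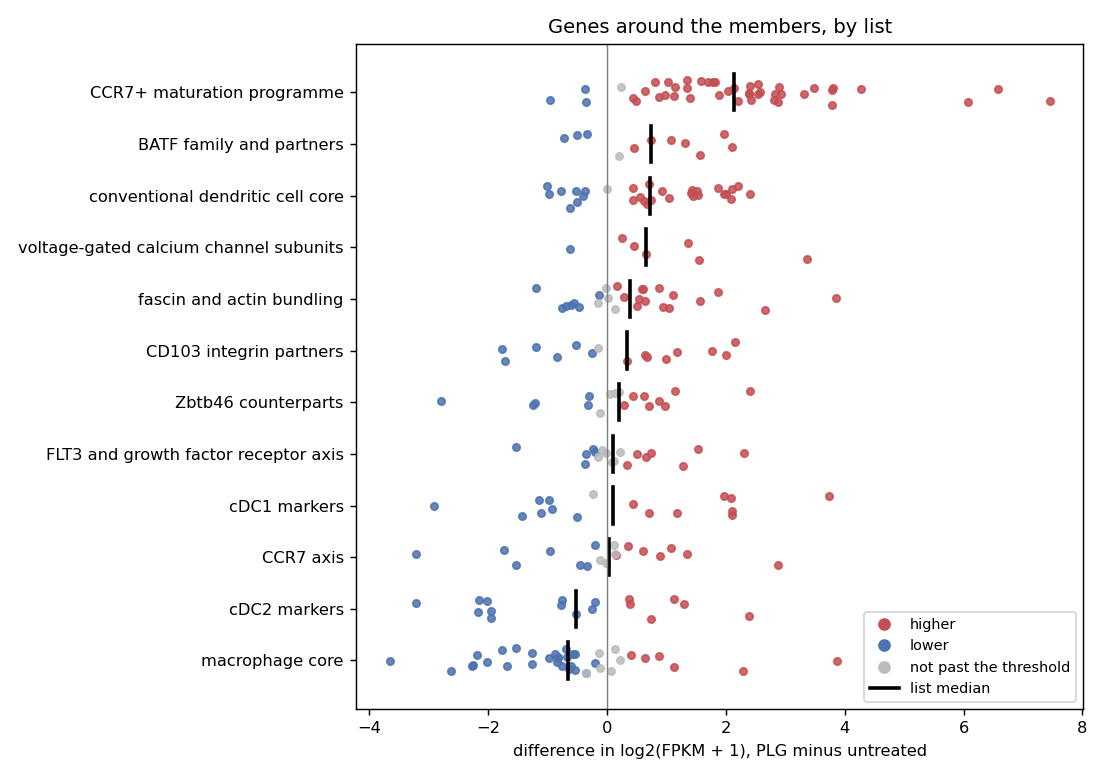
Difference in log2(FPKM + 1), PLG minus untreated, of each tested gene in the 12 lists around the members with at least 5 tested genes; red and blue points passed the test as higher and lower, grey points did not, and black bars are list medians. Among these 12 lists the maturation programme has the highest median (2.14) and the macrophage core the lowest (-0.65). Some genes stand in several lists and are drawn in each.

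Zbtb46, a zinc finger transcription factor gene of the conventional dendritic cell lineage (ENSMUSG00000027583.13, chromosome 2, 181387762 to 181459426, reverse strand), rose from a low level. It was at 1.83, 2.15, 1.90, 1.147 and 1.52 FPKM in untreated samples 1 to 5 and at 5.90, 5.70, 7.43, 7.04 and 5.93 FPKM in PLG samples 1 to 5. The lowest PLG sample was 2.66 times the highest untreated one. The mean went from 1.71 ± 0.385 to 6.40 ± 0.781 FPKM, a ratio of 3.75 (log2 change 1.46, SE 0.111, limma adjusted p = 6.27e-08). The change was 0.76 with a pseudocount of 5 and 1.87 with one of 0.1.

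Flt3 encodes the receptor for the growth factor FLT3 ligand, which dendritic cell precursors need (ENSMUSG00000042817.15, chromosome 5, 147330741 to 147400489, reverse strand). Its values were 0.111, 0.115, 0.175, 0.0560 and 0.11 FPKM in untreated samples 1 to 5, from 11 to 39 reads each. In PLG samples 1 to 5 they were 2.08, 1.94, 2.83, 1.64 and 1.996 FPKM, from 447 to 872 reads each. All PLG samples were above all untreated ones, at a level that stayed low. The mean went from 0.113 ± 0.0422 to 2.1 ± 0.441 FPKM, a ratio of 18.5 (log2 change 1.47, SE 0.103, limma adjusted p = 2.68e-08). At this level the log2 change depends on the pseudocount, with 0.47 at 5 and 3.37 at 0.1. GENCODE release M21 places an antisense gene, Gm26597, over the start of Flt3, and without a stated strand setting reads of the pair cannot be told apart there.

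Genes shared by conventional dendritic cells rose in larger number than they fell. Of 30 tested, 21 were higher, 8 were lower and 1 did not pass, with a median of 0.72. Irf8, a transcription factor gene of the lineage, went from 28.1 ± 2.41 to 124 ± 6.15 FPKM, Runx3 from 12.4 ± 0.854 to 37.4 ± 3.39 FPKM, and Gpr132, a receptor gene, from 17.2 ± 1.77 to 65.6 ± 2.64 FPKM. The 8 lower genes were Itgax, Spi1, Zeb2, Ikzf1, Jaml, Kmo, Kit and Ap1s3, listed here after their values had been seen. Itgax encodes CD11c, the integrin chain commonly used to identify dendritic cells, and fell from 270.2 ± 14.9 to 156 ± 6.59 FPKM. Spi1 encodes the myeloid transcription factor PU.1 and fell from 122 ± 4.02 to 85.3 ± 6.50 FPKM. Cbfa2t3, a corepressor gene, did not pass, at 7.00 ± 1.47 FPKM in untreated and 6.90 ± 0.516 FPKM in PLG samples. Of 17 transcription factors grouped with Zbtb46 as regulators of the myeloid branch, 8 were higher, 5 lower and 4 did not pass, with a median of 0.20. Relb, an NF-kB subunit gene that dendritic cells need, rose from 9.21 ± 1.78 to 52.5 ± 3.56 FPKM. Pparg fell from 9.29 ± 0.833 to 0.488 ± 0.145 FPKM and Cebpa, a factor of granulocytes and macrophages, from 58.9 ± 3.34 to 24.1 ± 1.27 FPKM.

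Growth factors, their receptors and the signalling genes below them moved in both directions. Of 18 tested genes of this mixed list 7 were higher, 5 were lower and 6 did not pass, with a median of 0.10. Among the 7 higher genes Pdgfrb was the only receptor gene. Csf2rb, the shared beta chain of the GM-CSF receptor, did not pass, at 517 ± 9.26 FPKM in untreated and 490.3 ± 24.2 FPKM in PLG samples. Pdgfrb, a receptor related to Flt3, rose from 0.253 ± 0.0786 to 5.18 ± 0.256 FPKM. Stat3, which acts below FLT3, rose from 17.4 ± 0.779 to 43.7 ± 1.99 FPKM, and Pik3cd, a lipid kinase gene, fell from 85.3 ± 6.81 to 28.6 ± 2.42 FPKM.

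The subset genes parted. Batf3 encodes a basic leucine zipper factor on which type 1 cells depend (ENSMUSG00000026630.9, chromosome 1, 191097847 to 191108945, forward strand). It was at 9.27, 6.45, 8.07, 5.88 and 8.498 FPKM in untreated samples 1 to 5 and at 18.6, 15.2, 17.3, 17.5 and 16.2 FPKM in PLG samples 1 to 5. The groups lay closer than for the other rising members, with the lowest PLG value 1.64 times the highest untreated value. The mean went from 7.63 ± 1.42 to 17.0 ± 1.30 FPKM, a ratio of 2.22 (log2 change 1.07, SE 0.104, limma adjusted p = 8.15e-07). Of 11 tested relatives and partners 7 were higher, 3 lower and 1 did not pass. The partner gene Junb rose from 35.4 ± 2.95 to 106 ± 6.88 FPKM and Nfil3, which acts above Batf3 in type 1 cells, from 8.51 ± 1.236 to 36.3 ± 3.88 FPKM. The paralogue Batf did not pass, at 7.49 ± 1.241 FPKM in untreated and 8.80 ± 1.69 FPKM in PLG samples.

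Itgae encodes the alpha chain of CD103, an integrin of type 1 cells in tissues and of resident T cells (ENSMUSG00000005947.11, chromosome 11, 73090583 to 73147446, forward strand). Its values were 1.39, 0.720, 0.582, 1.04 and 1.11 FPKM in untreated samples 1 to 5 and 0.374, 0.172, 0.0810, 0.174 and 0.367 FPKM in PLG samples 1 to 5. The groups were apart by a narrow margin, the lowest untreated value being 1.56 times the highest PLG value. The mean was 0.968 ± 0.321 FPKM in untreated and 0.234 ± 0.131 FPKM in PLG samples, from 835 and 284 reads in all, and in the fit without the filter the gene was lower (log2 change -0.67, SE 0.117, limma adjusted p = 9.88e-04). The change was -0.19 with a pseudocount of 5 and -1.72 with one of 0.1. Haspin, a kinase gene on the opposite strand, lies within an intron of Itgae (73135485 to 73138294) and touches none of its exons. Haspin had 0.911 to 2.47 FPKM in untreated and 0.663 to 1.21 FPKM in PLG samples, and its part in the reads of Itgae was not tested.

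Itgb7, the beta chain that pairs with Itgae, fell from 47.8 ± 3.24 to 13.4 ± 1.04 FPKM (log2 change -1.76, limma adjusted p = 2.66e-11). Itga4, the other alpha chain that pairs with Itgb7, rose from 6.09 ± 0.564 to 23.2 ± 0.778 FPKM. Tgfbr2, a receptor of TGF-beta, which is known to induce CD103 on T cells, fell from 24.0 ± 1.96 to 6.66 ± 0.713 FPKM. Itgb8, part of an integrin that activates TGF-beta, rose from 0.121 ± 0.0860 to 3.53 ± 0.555 FPKM. Of 15 tested genes around Itgae, 8 were higher, 6 lower and 1 did not pass, with a median of 0.33.

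Cd209a encodes a C-type lectin of monocyte-derived and type 2 dendritic cells (ENSMUSG00000031494.7, chromosome 8, 3743397 to 3748984, reverse strand). It was at 3.24, 4.60, 2.14, 1.38 and 3.61 FPKM in untreated samples 1 to 5. In PLG samples 1 to 4 it was listed at 0, and PLG sample 5 had 0.0710 FPKM. The untreated libraries held 881 reads and the PLG libraries 8, all in PLG 5, which is the deepest library. Per read sequenced the untreated level was 145 times the PLG level, with an exact 95% interval of 73.3 to 337 that covers counting error only. On the log2(FPKM + 1) scale the change was -1.92 (SE 0.186, limma adjusted p = 7.98e-07), with -0.66 at a pseudocount of 5 and -4.69 at 0.1. The paralogue Cd209c was lower too, going from 4.04 ± 1.06 to 0.158 ± 0.173 FPKM (log2 change -2.1, limma adjusted p = 5.87e-08). Like Cd209a, it passed the filter only through the untreated samples, so its call is no support for a direction. Cd209d, under the filter, was at 0.548 ± 0.538 FPKM in untreated samples and listed at 0 in all PLG samples. These paralogues are similar in sequence, and reads may be divided among them.

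The wider marker lists of both subsets moved in both directions. Of 16 tested type 1 markers 8 were higher, 7 lower and 1 did not pass, with a median of 0.10. Among the higher ones, Irf8, Id2, Btla and Nfil3 were also counted with the higher genes shared by conventional dendritic cells. Beside Irf8, Ly75 (the uptake receptor DEC-205) rose from 12.1 ± 0.933 to 54.8 ± 1.33 FPKM, while the defining lectin gene Clec9a fell from 9.67 ± 1.33 to 2.94 ± 0.163 FPKM and Wdfy4, needed for cross-presentation, from 23.6 ± 1.53 to 11.6 ± 1.01 FPKM. Naaa, a lipid amidase gene that type 1 cells express highly, fell from 108 ± 3.93 to 13.4 ± 1.12 FPKM. The chemokine receptor gene Xcr1, a defining marker of these cells, stayed near 0, at 0.0238 ± 0.0532 FPKM in untreated and 0.141 ± 0.0514 FPKM in PLG samples.

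Of 17 tested markers of type 2 and monocyte-derived cells 6 were higher and 11 lower, with a median of -0.52. Among the lower ones, Csf1r and Itgam are also counted with the lower macrophage genes. Clec10a and Mgl2, lectin genes of these cells like Cd209a, fell, the former from 4.54 ± 1.06 to 0.233 ± 0.0821 FPKM, the latter from 41.9 ± 6.32 to 10.1 ± 2.11 FPKM. Klf4, a factor that some type 2 cells need, fell from 29.2 ± 3.45 to 5.76 ± 1.237 FPKM. Irf4, the other factor of the subset, rose from 23.5 ± 2.89 to 39.7 ± 2.50 FPKM. Of 38 macrophage genes 26 were lower, 6 higher and 6 did not pass, with a median of -0.65. The mannose receptor gene Mrc1 fell from 58.8 ± 3.81 to 3.76 ± 0.490 FPKM, whereas Cd14 rose from 33.7 ± 2.92 to 508 ± 48.1 FPKM.

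The order of the members by FPKM, which is per length and can be read between genes, changed with PLG. In untreated samples it ran from Ccr7 (38.1 FPKM) through Fscn1 (28.5), Cacnb3 (9.76), Batf3 (7.63), Cd209a (3.0), Zbtb46 (1.71) and Itgae (0.968) to Flt3 (0.113). The ranges over 5 samples overlapped between Ccr7 and Fscn1, Cacnb3 and Batf3, Cd209a and Zbtb46, and Zbtb46 and Itgae. In PLG samples the order was Fscn1 (709), Ccr7 (542), Cacnb3 (154), Batf3 (17.0), Zbtb46 (6.40), Flt3 (2.1), Itgae (0.234) and Cd209a (0.0142), and no neighbouring ranges overlapped.

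Within the untreated group the 3 maturation genes varied together. Fscn1, Ccr7 and Cacnb3 were each highest in untreated 3, at 1.79, 1.58 and 1.85 times the median of the untreated samples, and each was second in untreated 1, at 1.22, 1.33 and 1.41 times. Flt3 was also highest in untreated 3 (1.58 times), whereas Itgae was lowest there (0.561 times) and Cd209a second lowest (0.660 times). The coefficients of variation were 34.5%, 28.4% and 33.5% for Fscn1, Ccr7 and Cacnb3 in untreated samples and 5.17%, 5.0% and 4.17% in PLG samples. Of the 45 tested genes of the maturation programme 20, or 44.4%, had their highest untreated value in untreated 3, against 15.1% of all tested genes and 32.0% of the 275 genes that rose by at least 2 on the log2 scale. For the macrophage genes the count was 3 of 38. Reads on 3 repeat-like gene models, Gm10800, Gm10801 and Gm21738, took 4.10%, 0.797%, 5.92%, 5.25% and 2.13% of the reads of untreated samples 1 to 5 and 0.130% to 4.08% in PLG samples, ranges that overlap; their part in this spread was not tested. Without untreated 1 and 3 the log2 changes were 4.93 for Fscn1, 4.10 for Ccr7 and 4.18 for Cacnb3.

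**Figure D4:**
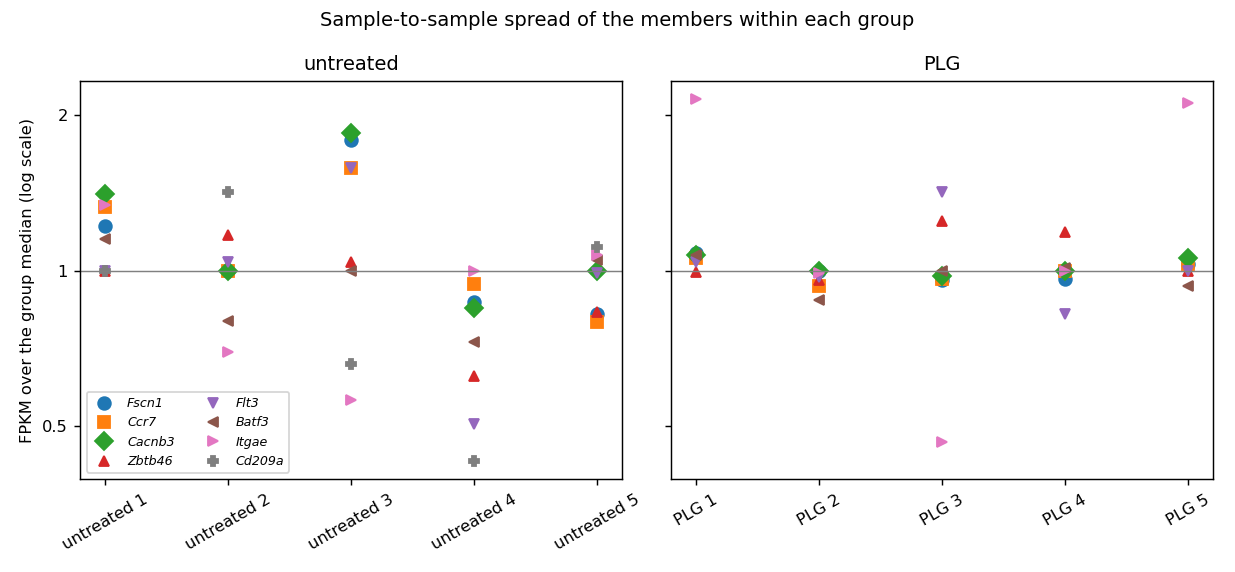
FPKM of each member in each sample divided by its group median (log scale), for untreated samples (left) and PLG samples (right); Cd209a has a PLG median of 0 and is not drawn on the right. Fscn1, Ccr7 and Cacnb3 stand highest in untreated 3 (1.58 to 1.85) and lie close to 1 in every PLG sample.

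The genes most like the called members were sought by Pearson's r of log2(FPKM + 1) over the 10 samples. The samples form 2 separate groups, so that r mainly reflects the difference between them and is given as a description. Tbc1d4, a regulator of vesicle traffic, was among the 3 genes nearest to Fscn1 (r = 0.9989), Ccr7 (0.9984) and Cacnb3 (0.9988), and went from 5.29 ± 1.14 to 45.2 ± 2.37 FPKM. Heatr9 was among the 3 nearest to each of them as well (0.9992, 0.9982 and 0.9984), going from 0.157 ± 0.176 to 6.22 ± 0.448 FPKM. The third gene was Ccl22 for Fscn1 (0.9984), Npr1, a natriuretic peptide receptor gene, for Ccr7 (0.9986) and Fam129a for Cacnb3 (0.9984). Nearest to Flt3 was Sesn2 (0.9948), to Batf3 the adenosine receptor gene Adora2b (0.9943) and to Cd209a Cd164 (0.9932), a sialomucin gene that fell from 107 ± 8.97 to 68.5 ± 1.46 FPKM. Nearest to Zbtb46 were AA467197 (0.9957) and Mdm4 (0.9954), a relative of the p53 inhibitor Mdm2.

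Markers of other cells that can carry these genes were checked as whole lists, leaving out listed genes that are absent from the table or are members. Of the plasmacytoid dendritic cell list 7 genes were tested, 5 higher and 1 lower, and its summed level was 91.0 to 120.1 FPKM in untreated and 440.1 to 484 FPKM in PLG samples. Most of that sum was Bst2, which interferon also induces (84.4 ± 12 to 440.2 ± 22.0 FPKM), and the defining Siglech was at 0.136 ± 0.0636 FPKM and 0.00360 ± 0.00805 FPKM. Of the T and NK cell list 4 genes were tested, 3 higher and 1 lower, with a summed level of 27.6 to 34.7 FPKM and 54.2 to 57.2 FPKM. The T cell gene Cd3e was at 0.00300 ± 0.00671 FPKM and 0.00520 ± 0.0116 FPKM, which does not speak for NK cells. Of the B cell list 0 genes reached the filter, and its sum was 0.513 to 0.977 FPKM and 0.243 to 0.645 FPKM. The neutrophil and precursor list summed to 399 to 414 FPKM and 141 to 166 FPKM, nearly all of it Mmp8, with 2 of 6 tested genes higher and 2 lower. Its precursor gene Mpo was at 0 in all untreated samples and at 0.0154 ± 0.0344 FPKM in PLG samples, which does not speak for mature neutrophils. The mast cell and basophil list summed to 3.05 to 5.21 FPKM and 22.5 to 26.9 FPKM, most of the latter from Hdc, with 2 of 3 tested genes higher. The stromal list stayed at 2.85 to 3.79 FPKM and 6.83 to 8.92 FPKM, with 1 of 2 tested genes higher and 1 lower. In the progenitor list, at 66.6 to 75.3 FPKM and 105 to 119.9 FPKM, 1 of 3 tested genes was higher and 2 were lower. Of the progenitor list 8 of 11 genes were read in this way, and of the neutrophil and precursor list 13 of 15. No gene that was read was at 0 in every sample, and the part of such cells in the members' levels was not tested.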

How the data were processed

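Total RNA-seq of 10 samples was analysed, with groups and replicate numbers taken from the sample titles. The authors deposited FPKM for protein-coding genes with gene length and position; among the tools in the submitters' processing notes are STAR 2.7.3a and featureCounts 2.0.0, beside cutadapt 2.10, FastQC 0.11.9 and DESeq2 1.24.0, and the build there is GRCm38.p6. No source used here gives the annotation, the strand setting or the handling of multiply matching reads. All 8 members have the coordinates and summed exon length of GENCODE release M21.

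FPKM multiplied by gene length fell on whole multiples of 1 step in each sample, which gave denominators of 31977234 to 70737131 reads. Within 0.1 read at least 99.94% of the values that can show the step were whole. These reads served for depth, counting intervals (exact binomial, 95%) and 1 alternative.

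Values were analysed as log2(FPKM + 1) with limma 3.58.1 under R 4.3.3, fitting treatment alone with an intensity trend, over all genes at 1 FPKM or more in at least 5 samples, with two-sided Benjamini-Hochberg adjusted p-values. Because the unit is FPKM, no count model was the main result. Tables and figures used Python 3.11.15.

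The members and the lists were chosen with earlier results of these data known. Named genes were the members, up to 4 genes per list with the smallest adjusted p, up to 2 of the most abundant that did not pass, the 3 genes most like each called member, and listed cell type markers. Some genes meeting this rule are not described. Alternatives were pseudocounts of 0.1 and 5, other filters, scalings and variance models, a replicate block, voom on the recovered reads and leaving out each sample. Removal of the repeat-like gene models and leaving out untreated 1 and 3 together were added after seeing the data.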

Additional observations from a re-analysis of the deposited data

Results flagged for a closer look

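PLG 5 stood apart from the other PLG samples for Cd209a, with 0.071 FPKM from 8 reads while the other 4 were listed at 0. Untreated 2 stood apart from the other untreated samples for Il6, a cytokine gene of the maturation list, with 0.457 FPKM against 0.013 FPKM in the next highest sample. They were the only such samples among 138 groups of 5 examined, and chance marks about 1 group in 20 by this measure. Both flagged groups hold mostly zeros, for which that rate need not hold. Only part of the listed genes was examined, so the lack of a flag on another listed gene says nothing about it. Il12b of the maturation list carries no flag, yet had 2.98 FPKM in untreated 3 against 0.47 to 0.80 FPKM in the other untreated samples. Mreg of the same list, also without a flag, had 25.5 FPKM in untreated 2 against 22.3 to 22.7 FPKM in the others.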

How the results depend on the processing

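The members that passed kept their direction and stayed past the threshold in every alternative that tested them, 24 for Fscn1, Ccr7, Cacnb3, Zbtb46 and Batf3 and 23 for Flt3 and Cd209a. Itgae, not tested in the main fit, kept the direction of the fit without the filter and stayed past the threshold in 22 alternatives, all without the filter. Changes ranged from 4.46 to 4.93 for Fscn1, 3.67 to 4.10 for Ccr7, 3.46 to 4.18 for Cacnb3 and 0.80 to 1.19 for Batf3. For low genes they followed the pseudocount and the unit, with 0.76 to 1.89 for Zbtb46, 0.47 to 4.19 for Flt3, -7.92 to -0.66 for Cd209a and -2.11 to -0.19 for Itgae, each furthest from 0 with voom on the recovered reads. The number of members called lower, 1, became 2 without the filter, when Itgae was tested too, and 0 with a filter of 5 FPKM, which left 5 members to test. Over all genes 2185 to 3360 were called higher and 2133 to 3650 lower. No pairing by replicate number was seen, as deviations of same-numbered samples correlated at -0.121 to 0.0988. Such correlations cannot tell whether same-numbered samples share a mouse or a culture. With the replicate block 2797 genes were called higher and 2988 lower, 6 members and 1 member among them. Depth limits Cd209a in PLG samples, at 0 to 8 reads, and Flt3 in untreated samples, at 11 to 39 reads.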

Other observations

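The untreated samples differed in which gene groups stood highest in them. Untreated 4 was the lowest untreated sample for Cacnb3, Zbtb46, Flt3, Batf3 and Cd209a. It held the highest untreated value of 14 of the 38 tested macrophage genes, or 36.8%, against 13.3% of all tested genes. Untreated 3 held that of 4 of the 7 genes around Batf3 that were higher with PLG. Untreated 2 held the highest value of 32.3% of all tested genes and of 10 of the 26 tested actin bundling genes. These counts describe 5 samples whose labels do not differ, and no test was made on them.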
